A study of Mus musculus with 6 samples.

Results

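The mouse has 2 nucleobindin genes, Nucb1 and Nucb2, and both were measured in poly(A) RNA from pancreatic islets. They were taken by symbol from a table of counts for 23420 gene symbols, and both were among the 14903 genes with enough counts to be tested. All mice were C57BL/6J and carried a gastric infusion for 9 days. The overfed mice, labelled OIO for overfeeding-induced obesity, received the liquid diet Ensure at 13 to 18.5 kcal per day, and control mice received saline. Each group held 3 libraries. The sources used here do not give age, sex or the number of animals behind a library, so the spread between libraries may be technical. No genetic change is given for either group.

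Nucleobindins are calcium-binding proteins with EF-hands, a signal peptide and a leucine zipper, which occur in the Golgi, the ER lumen, the cytosol and the secreted fraction. NUCB1, also called calnuc, is a resident of the Golgi that takes part in Golgi calcium storage and has been described as a brake on the cleavage of ATF6, a sensor of ER stress. NUCB2 is the precursor of nesfatin-1, a peptide known for reducing food intake when given to rodents, and in islets it is found in beta cells, where nesfatin-1 has been described as raising glucose-stimulated insulin secretion. Prohormone convertases of the secretory granule are thought to cut the precursor.

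Nucb2 and Nucb1 were chosen by their measured levels in OIO and control islets, which were already known. Their differences between the groups are therefore given as a description, with no test and no p-value. In GRCm38, Nucb1 lies on chromosome 7 from 45490458 to 45510406 on the minus strand and Nucb2 on the same chromosome from 116504369 to 116540584 on the plus strand. Both are annotated as protein-coding, and the longest protein-coding transcript of each has 13 exons. No run of 31 bases, the word length used here to compare transcripts, was shared between annotated transcripts of Nucb1 and Nucb2. Of the 8323 such words in Nucb1 transcripts, 121 (1.45%) also occurred in transcripts of other genes, and of the 2357 in Nucb2 transcripts none did.

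The promoters are shown because the members differ in a sequence element of the ER stress response. These are the 250 bases before each gene's RefSeq start in GRCm38.p6, read in the direction of transcription, at chr7:45510409-45510658 on the minus strand for Nucb1 and chr7:116504119-116504368 on the plus strand for Nucb2. Capitals mark CCAAT and CCACG on either strand.
Nucb1: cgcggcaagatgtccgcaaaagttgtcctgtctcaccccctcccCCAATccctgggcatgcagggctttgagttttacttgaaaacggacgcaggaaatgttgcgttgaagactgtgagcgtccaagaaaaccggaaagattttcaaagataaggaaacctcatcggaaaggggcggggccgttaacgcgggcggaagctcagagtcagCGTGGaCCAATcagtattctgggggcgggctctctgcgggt
Nucb2: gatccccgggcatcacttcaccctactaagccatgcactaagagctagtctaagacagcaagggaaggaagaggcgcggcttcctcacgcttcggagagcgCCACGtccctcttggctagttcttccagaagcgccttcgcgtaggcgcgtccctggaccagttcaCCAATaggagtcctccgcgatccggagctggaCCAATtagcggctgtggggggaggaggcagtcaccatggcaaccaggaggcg
The Nucb1 promoter held 2 matches to CCAAT and 1 to CCACG, and the Nucb2 promoter also held 2 and 1. In Nucb1, 1 of each stood side by side, separated by a single base, and together they spelled ERSE-II (ATTGG, any 1 base, then CCACG, on either strand), an element known from the Herpud1 promoter as a target of the unfolded protein response. This match ended 30 bases before the gene start. Of 32851 promoters of the same length, 10 (0.0304%) held ERSE-II, 9311 (28.3%) held CCACG and 11120 (33.8%) held CCAAT. The longer element ERSE (CCAAT, any 9 bases, then CCACG, on either strand), which like ERSE-II contains both short motifs, was in 37 promoters (0.113%) and in neither member. UPRE (TGACGTGG, 0.563% of promoters), CRE (TGACGTCA, 1.55%) and the E-box (CACGTG, 6.02%) were searched on both strands and matched in neither window. GC content was 55.2% in the Nucb1 window and 60.8% in the Nucb2 window, against a median of 52.4%.

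Nucb2, the nesfatin precursor, stood at 458, 488 and 468 CPM (the count scaled to a common library size after TMM normalization) in OIO replicates 1, 2 and 3. It stood at 252, 229 and 237 CPM in control replicates 1, 2 and 3. The lowest OIO library was thus far above the highest control library, and the groups did not overlap. The mean was 471 ± 15.2 CPM (SD, n = 3) in OIO and 239 ± 11.7 CPM (SD, n = 3) in control islets. The log2 fold change of OIO over control was 0.98 (SE 0.06), or 1.97-fold.

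Nucb1, the Golgi calcium-binding member, stood at 362, 369 and 363 CPM in OIO replicates 1, 2 and 3. It stood at 283, 278 and 263 CPM in control replicates 1, 2 and 3. All OIO libraries lay within a narrow band above all control libraries. The mean was 365 ± 4.13 CPM (SD, n = 3) in OIO and 275 ± 10.6 CPM (SD, n = 3) in control islets. The log2 fold change was 0.41 (SE 0.05), or 1.33-fold, a smaller difference than that of Nucb2.

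**Figure D1:**
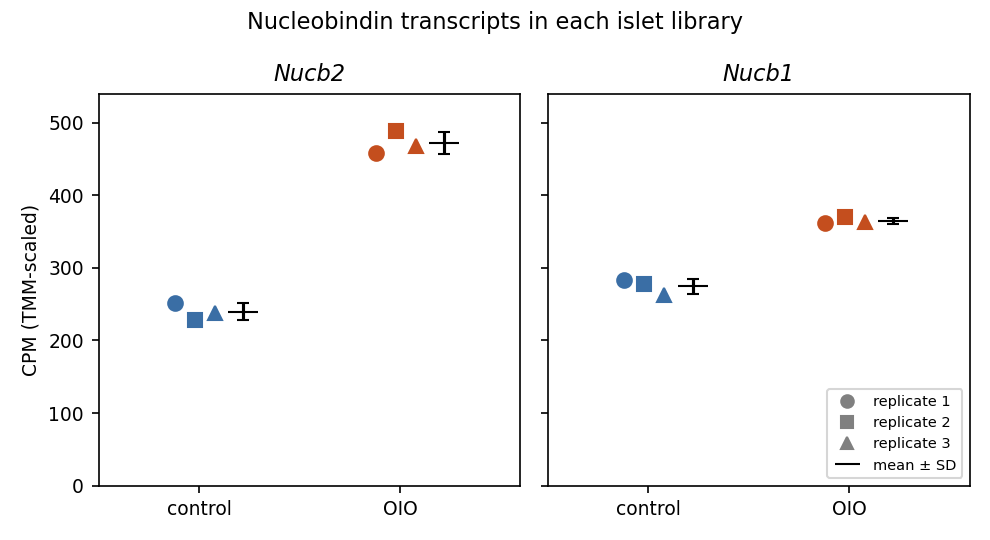
CPM on TMM-scaled library sizes of Nucb2 (left) and Nucb1 (right) in each control and OIO library, with the mean ± SD of 3 libraries beside the points. For Nucb2 the OIO libraries sit between 458 and 488 CPM and the control libraries between 229 and 252, and for Nucb1 they sit between 362 and 369 and between 263 and 283.

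The groups did not overlap for either member. Among all 14903 genes tested, 14.1% had every OIO library above every control library, and the rule that chose the members used this contrast, so nothing is read from that count. Libraries of a group differed little in either gene. The coefficient of variation of Nucb2 was 3.22% in OIO and 4.90% in control islets, and that of Nucb1 was 1.13% and 3.86%. Counts behind these values ranged from 7559 for Nucb1 in OIO replicate 1, the shallowest library, to 23112 for Nucb2 in OIO replicate 2, the deepest. Counting error alone gives a coefficient of variation between 0.658% and 1.15% at these counts. In bulk RNA, a different number of cells of a type and a different amount of RNA per cell cannot be told apart.

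Nucb2 combined a high level with a large difference. Of the tested genes, 271 had a larger log2 fold change than Nucb2. None of these was among the 193 genes at or above its average level. Nucb1 was exceeded in log2 fold change by 959 genes, of which 14 were among the 233 genes at or above its level. In the authors' deposited table the log2 fold change was 0.98 for Nucb2 and 0.41 for Nucb1, with average log2 expression of 8.39 and 8.31, which places Nucb2 at rank 295 and Nucb1 at rank 963 of 14903 genes by fold change.

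**Figure D2:**
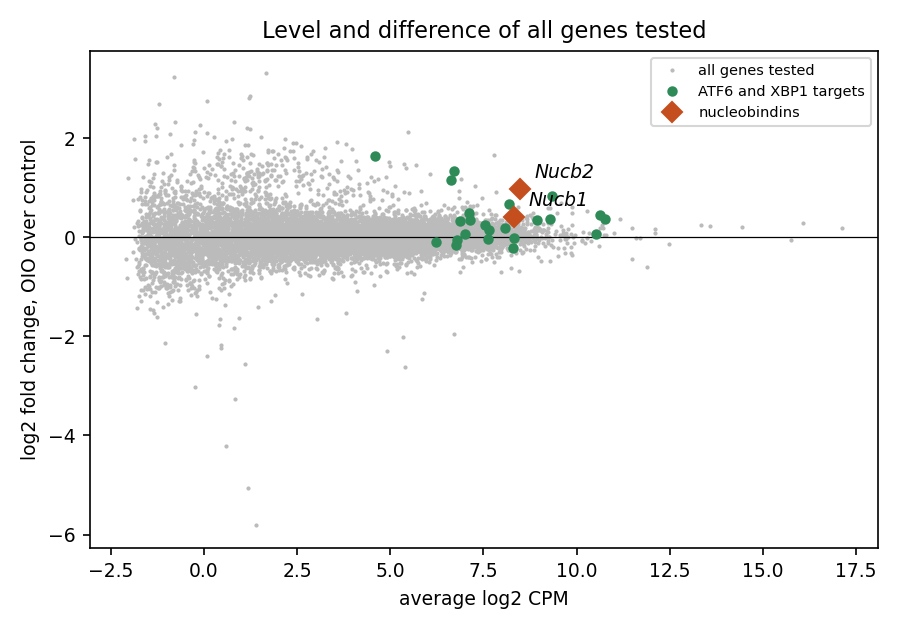
Average log2 CPM of each of 14903 tested genes (horizontal) against its log2 fold change of OIO over control (vertical), with the nucleobindins as diamonds and the listed targets of ATF6 and XBP1 as green circles. Nucb2, at 0.98, is the highest point at or beyond its own level, and Nucb1 lies at 0.41.

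The ratio of Nucb2 to Nucb1 counts was higher in OIO islets. Nucb2 had 1.27, 1.32 and 1.29 counts for each count of Nucb1 in OIO replicates 1, 2 and 3. It had 0.889, 0.823 and 0.903 in control replicates 1, 2 and 3. Every OIO library was above 1 and every control library below it. The mean ratio was 1.29 ± 0.03 (SD, n = 3) in OIO and 0.872 ± 0.043 (SD, n = 3) in control islets, a difference of 0.57 on the log2 scale. This ratio is taken within a library and does not depend on library scaling. It is not per length and does not give the relative number of transcripts, so passing 1 has no meaning of its own. At every length taken below, the same member was the higher in both groups.

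**Figure D3:**
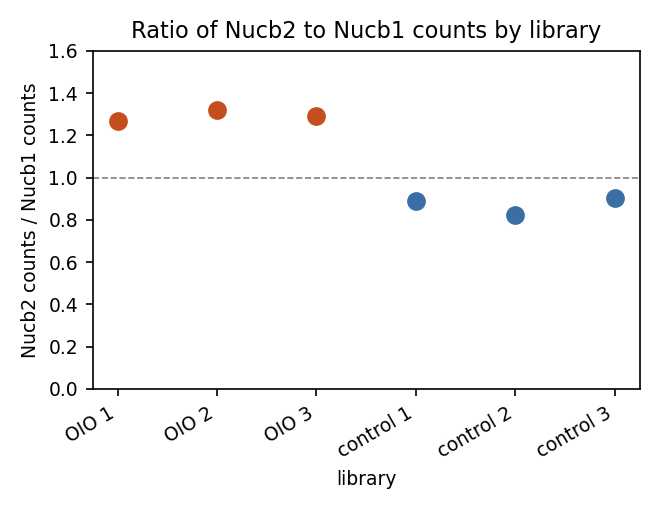
Nucb2 counts divided by Nucb1 counts in each of the 6 libraries, with a dashed line at a ratio of 1. The OIO libraries lie between 1.27 and 1.32 and the control libraries between 0.823 and 0.903.

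Per length, the order of the members depended on which transcript was taken. On the longest protein-coding transcript, 1913 bases for Nucb2 and 4853 for Nucb1, control islets held 125 ± 6.13 CPM per kb of Nucb2 and 56.6 ± 2.18 of Nucb1 (SD, n = 3). OIO islets held 246 ± 7.95 and 75.2 ± 0.850 CPM per kb (SD, n = 3). Both values moved with the length taken, that of Nucb1 more. With merged exons included, control islets held 103 to 142 CPM per kb of Nucb2 and 33.4 to 351 of Nucb1. On the shortest transcript with a consensus coding sequence (CCDS), 1685 bases for Nucb2 and 2111 for Nucb1, control islets held 142 ± 6.96 CPM per kb of Nucb2 and 130 ± 5.02 of Nucb1, and OIO islets 280 ± 9.02 and 173 ± 1.95. On the median length of protein-coding transcripts, 783 bases for Nucb1 with its 6 such transcripts, Nucb1 was the higher in both groups, at 351 against 133 CPM per kb in control islets. Counts were given per gene, so which transcript was present is unknown.

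Among 17 other EF-hand proteins of the secretory pathway, all of them tested, Nucb2 had the highest level per kb on the longest transcript in both groups. In control islets the neighbour below it was Fkbp9, an ER prolyl isomerase with EF-hands, at 120 ± 4.09 CPM per kb, whose libraries overlapped with those of Nucb2. In OIO islets Fkbp9 stood at 116 ± 2.59 CPM per kb and its libraries no longer reached those of Nucb2. Nucb1 moved from the fifth to the fourth place, past Sdf4, the Golgi calcium-binding protein Cab45, which stood at 59.0 ± 2.08 CPM per kb in control and 64.0 ± 1.09 in OIO islets. The libraries of Nucb1 and Sdf4 overlapped in control and not in OIO islets. These places rest on the longest transcript of each gene, and no other length was tried for the 17 genes. On its shortest CCDS transcript Nucb1 stood at 130 CPM per kb in control islets.

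Of these 17 genes, 1 rose and 1 fell, and 15 did not pass edgeR's quasi-likelihood test at an adjusted p of 0.05 over all genes. Over all genes tested, 4.54% were called higher and 2.84% lower in OIO islets, or 676 and 423 genes, and 7.37% in either direction. The calls were 498 higher and 1113 lower when libraries were scaled by size alone. Leaving out OIO replicate 1, 2 or 3 gave 513, 460 and 506 calls in all, and leaving out control replicate 2 gave 701. The median log2 fold change of the EF-hand list was −0.07, against −0.01 over all genes tested. Cgref1, a secreted EF-hand protein, stood at 14.5, 16.0 and 16.2 CPM in OIO and at 7.90, 8.84 and 10.8 CPM in control replicates 1, 2 and 3. It rose by 0.76 (SE 0.12, edgeR adjusted p = 0.0051), and no control library reached an OIO library.

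Fkbp14, an ER prolyl isomerase with EF-hands, fell by 0.45 (SE 0.10, edgeR adjusted p = 0.024). The call was lost when OIO replicate 2 or 3 or control replicate 1 or 2 was left out (adjusted p 0.083, 0.087, 0.061 and 0.067). The closest relatives by architecture, the CREC proteins of the ER and Golgi, had small differences that did not pass. Calu, the gene of calumenin, was at −0.07 on the log2 scale (SE 0.09, adjusted p = 0.69), and Sdf4 was at 0.12 (SE 0.05, adjusted p = 0.22). Rcn1, Rcn2 and Rcn3, the reticulocalbins, were at −0.10, −0.11 and −0.21. No member of the list had a log2 fold change as large as that of Nucb2, and Cgref1 alone exceeded that of Nucb1.

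Of 19 tested genes of the calcium stores of the ER and Golgi, 2 rose and 1 fell, with a median of 0.04 against −0.01 over all genes. Those that rose make up 10.5% of the list, beside 4.54% of all genes. Calr, the gene of the ER calcium-binding chaperone calreticulin, stood at 1077, 1091 and 1110 CPM in OIO and at 786, 768 and 772 CPM in control replicates 1, 2 and 3. It rose by 0.49 (SE 0.05, edgeR adjusted p = 7.0e-04), with no overlap between the groups. Hsp90b1, the ER chaperone GRP94, rose by 0.37 (SE 0.06, adjusted p = 0.0047). It is also among the targets of ATF6 and XBP1 that rose, given below, so it is counted in both lists.

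Itpr2, an inositol trisphosphate receptor that releases stored calcium, fell by 0.33 (SE 0.08, edgeR adjusted p = 0.038). That call was lost without any 1 OIO library or without control replicate 1 or 2 (adjusted p between 0.058 and 0.134). The pumps that fill the stores had values close to 0: Atp2a2, the ER calcium pump, was at 0.04 (SE 0.07, adjusted p = 0.79) and Atp2c1, the Golgi pump, at 0.03 (SE 0.05, adjusted p = 0.81). With DESeq2, 4 genes of this list rose and 1 fell, beside 900 and 511 of all 14903 genes tested.

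Targets of ATF6 and XBP1, factors of the unfolded protein response, had the highest share of calls among the lists other than cell type markers. There were 13 of 23 that rose and 10 that missed the threshold, with no member called lower. The median log2 fold change was 0.32, against −0.01 over all genes. The 13 make up 56.5% of the list, beside 4.54% of all genes. Of these 13 genes, 10 to 12 passed when 1 library was left out, and those lost in some of these fits were Derl3, Dnajb11 and Pdia4. Earlier results of these data were known when the list was written, so it is no independent evidence of direction.

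Creld2, an ER stress-induced protein, stood at 146, 163 and 144 CPM in OIO and at 61.2, 56.7 and 62.5 CPM in control replicates 1, 2 and 3, a rise of 1.33 (SE 0.07, edgeR adjusted p = 6.6e-06). The rise of Sdf2l1, an ER chaperone component, was 1.16 (SE 0.09, adjusted p = 2.7e-04). That of Pdia6, which forms disulfide bonds in the ER, was 0.84 (SE 0.06, adjusted p = 3.8e-05). Ssr4, of the complex at the ER translocon, had a rise of 0.66 (SE 0.06, adjusted p = 5.5e-04). No library of one group reached the other in any of these genes, which were named for the lowest p of the list. Among all genes tested, 14.1% had every OIO library above every control library. The log2 fold change of Nucb2 was exceeded by 3 members of the list and that of Nucb1 by 7.

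Some well-known ER stress genes did not pass. Hspa5, the gene of the chaperone BiP, had a mean of 1482 ± 37.1 CPM in OIO against 1426 ± 127 CPM in control islets (SD, n = 3), a difference of 0.06 on the log2 scale (SE 0.07, edgeR adjusted p = 0.69). Xbp1 was at −0.02 (SE 0.06, adjusted p = 0.89). Herpud1, a component of ER-associated degradation, was at −0.03 (SE 0.14, adjusted p = 0.92). These intervals cover 0, and a missed threshold does not show that the levels were equal.

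**Figure D4:**
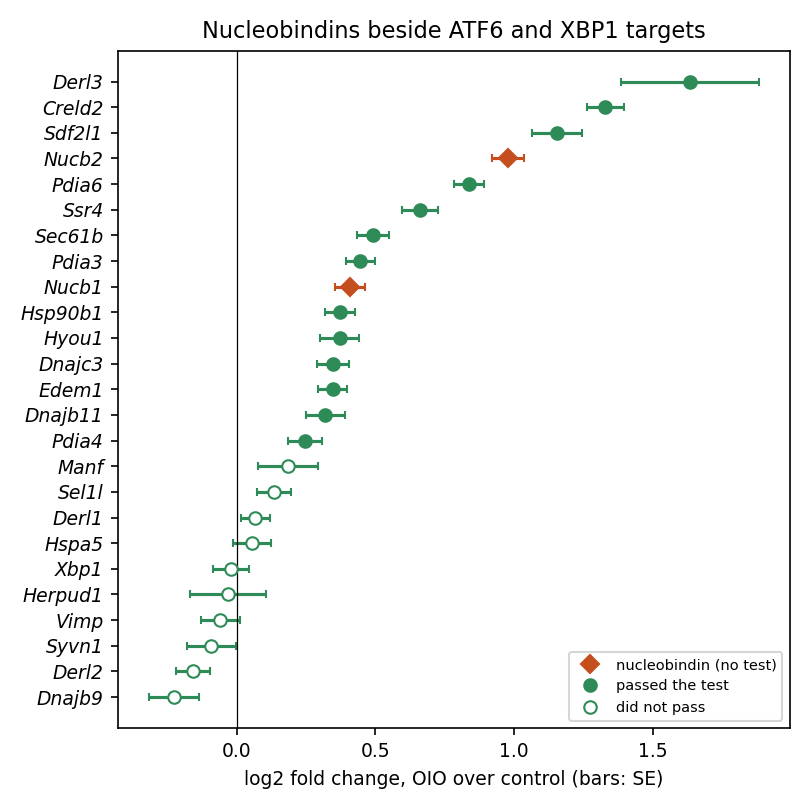
Log2 fold change of OIO over control (points) with its SE (bars) for 23 targets of ATF6 and XBP1 and for the nucleobindins, ordered by size. Filled circles passed the test, open circles did not, and diamonds are Nucb2 and Nucb1, which were not tested. Nucb2 at 0.98 lies between Sdf2l1 at 1.16 and Pdia6 at 0.84, and Nucb1 at 0.41 lies between Pdia3 at 0.45 and Hsp90b1 at 0.37.

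ERSE-II, the element found in the Nucb1 promoter, was also matched before 5 other tested genes. The matches are shown with 10 bases on each side, read toward the gene, with the fixed letters of the element in capitals. They lie at chr7:45510429-45510459 (minus strand) for Nucb1, chr8:94386367-94386397 (plus) for Herpud1, chr11:20831297-20831327 (minus) for Lgalsl, chr3:106721604-106721634 (plus) for Lrif1, chr2:156180301-156180331 (minus) for Rbm39 and chr19:29101283-29101313 (plus) for Rcl1, all in GRCm38.p6.
Nucb1: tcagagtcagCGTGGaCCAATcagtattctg
Herpud1: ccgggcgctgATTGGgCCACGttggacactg
Lgalsl: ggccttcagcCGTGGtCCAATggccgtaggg
Lrif1: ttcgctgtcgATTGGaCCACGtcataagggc
Rbm39: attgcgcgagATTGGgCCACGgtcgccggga
Rcl1: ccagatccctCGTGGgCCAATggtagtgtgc
In Nucb1, Lgalsl and Rcl1 the element reads in the reverse orientation. The genes were listed by sequence after values were seen. Of the 5 other than Nucb1, Lgalsl, the gene of a galectin-related protein, rose by 0.42 (SE 0.07, edgeR adjusted p = 0.0083), and the other 4 did not pass, with a median over the 5 of −0.19. Over all genes, 4.54% were called higher and 2.84% lower, and 5 genes are too few to set against these shares. Some calls in the opposite direction to Nucb1 were gained under other settings: Rbm39, at −0.23 (SE 0.07, adjusted p = 0.079), passed with DESeq2 (0.033), with scaling by library size alone (0.029) and without control replicate 3 (0.049), and Lrif1, at −0.26 (adjusted p = 0.069), with scaling by library size alone (0.030). In these 3 settings, 511 of 14903, 1113 of 14903 and 303 of 15022 genes were called lower over all genes. Over all 13 alternatives the adjusted p ranged up to 0.256 for Rbm39 and 0.250 for Lrif1. Herpud1, in which the element was described, is one of those that did not pass.

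ERSE, which neither nucleobindin promoter held, was matched before 17 tested genes. Their median log2 fold change was 0.16. No gene fell and 7 rose (41.2%, beside 4.54% of all genes), namely Alg12, Calr, Creld2, Derl3, Dnajc3, Hsp90b1 and Pdia6. This is no separate result, since 5 of the 7 were already counted among the targets of ATF6 and XBP1 and Calr among the calcium stores. Alg12, an enzyme of N-glycan assembly, rose by 0.41 (SE 0.08, edgeR adjusted p = 0.012) and shares its match with Creld2, which starts in the opposite direction. Derl3, a component of ER-associated degradation, stood at 28.9, 40.5 and 38.7 CPM in OIO and at 14.7, 8.02 and 12.3 CPM in control replicates 1, 2 and 3. It rose by 1.63 (SE 0.25, edgeR adjusted p = 0.022), a call lost when OIO replicate 2 or 3 or control replicate 3 was left out (adjusted p 0.073, 0.072 and 0.073). A match is a string of letters in a window and not evidence of a factor bound there.

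Among 12 enzymes and helpers of prohormone processing, 2 rose (16.7%) and 1 fell, with a median of 0.04. Over all genes, 4.54% rose and 2.84% fell. Pcsk1, a granule convertase that can cut NUCB2, stood at 922, 808 and 756 CPM in OIO and at 657, 557 and 568 CPM in control replicates 1, 2 and 3. It rose by 0.48 (SE 0.09, edgeR adjusted p = 0.013), with every OIO library above every control library. Pcsk2, the other main granule convertase, was at 0.08 on the log2 scale (SE 0.07, adjusted p = 0.54). Pam, which amidates peptide ends, rose by 0.23 (SE 0.05, adjusted p = 0.031), and Pcsk6, a convertase of the constitutive pathway, fell by 0.25 (SE 0.07, adjusted p = 0.047). In every fit that left out a library the list held 1 or 2 calls: Pam passed in none of them (adjusted p between 0.056 and 0.102) and neither did Pcsk6 (between 0.067 and 0.169). Pam also did not pass when libraries were scaled by size alone (adjusted p = 0.066).

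The list of 19 tested hormones and granule peptides held 2 genes that rose (10.5%, beside 4.54% of all genes) and none that fell. Its median was −0.01, as over all genes. Vgf, a granule protein that is itself a peptide precursor, stood at 22.1, 20.3 and 28.8 CPM in OIO and at 9.65, 13.0 and 13.0 CPM in control replicates 1, 2 and 3. It rose by 0.995 (SE 0.16, edgeR adjusted p = 0.012). Its excess over the 0.979 of Nucb2 is far smaller than its SE, and the order turned with limma voom, without OIO replicate 3 (0.836 against 0.992) and without control replicate 1 (0.868 against 1.02). Chgb, the granin chromogranin B, rose by 0.36 (SE 0.08, adjusted p = 0.027), a call lost when OIO replicate 1 or 3 or control replicate 1 or 3 was left out (adjusted p 0.087, 0.064, 0.078 and 0.066) and with scaling by library size alone (0.060). Ins1 and Iapp, the genes of insulin and amylin, were at 0.28 and 0.20 and did not pass (adjusted p 0.078 and 0.075). With DESeq2, 7 members rose and 1 fell, beside 900 and 511 of all 14903 genes tested.

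Among 11 tested genes of proteins reported to bind or act with nucleobindins, 1 rose (9.09%, beside 4.54% of all genes) and no other gene passed. Log2 fold changes ran in both directions, from −0.62 for Mmp2 (SE 0.43, adjusted p = 0.45) to 0.37, with a median of 0.01. Tnfrsf1a, the tumour necrosis factor receptor whose shedding has been tied to NUCB2, stood at 71.5, 58.6 and 65.4 CPM in OIO and at 50.7, 46.9 and 53.1 CPM in control replicates 1, 2 and 3. It rose by 0.37 (SE 0.08, edgeR adjusted p = 0.020), a call lost when OIO replicate 1 or 3 or control replicate 1 or 2 was left out (adjusted p 0.060, 0.062, 0.058 and 0.069). Erap1, its partner in that complex, was at −0.02 (SE 0.07, adjusted p = 0.89).

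Atf6, the stress sensor that NUCB1 is described to restrain, had a mean of 157 ± 11.9 CPM in OIO against 180 ± 3.57 CPM in control islets (SD, n = 3). The difference of −0.20 on the log2 scale (SE 0.06) missed the threshold (edgeR adjusted p = 0.080), while it passed with DESeq2 (0.049), without OIO replicate 3 (0.0496) and when scaled by library size alone (0.016). Mbtps1, the protease that cuts ATF6, was at 0.05 (SE 0.05, adjusted p = 0.66). Ptgs2, the cyclooxygenase that binds NUCB1, had a mean of 0.293 ± 0.198 CPM in OIO against 0.305 ± 0.225 CPM in control islets (SD, n = 3), too low to compare.

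G protein alpha subunits, which NUCB1 binds through a short helical motif, held 1 call among 13. Over all genes, 7.37% were called in either direction. Gnai1, an inhibitory subunit, fell by 0.26 (SE 0.07, edgeR adjusted p = 0.049), and it passed in none of the fits without 1 library (adjusted p between 0.055 and 0.213), nor with RLE scaling (0.055) or limma voom (0.0504). Gnai2 and Gnai3, the subunits of the same class, were at 0.05 and −0.07 and did not pass. Gpr12, a receptor proposed for nesfatin-1, had 1 count in OIO replicate 2 and 0 in the other libraries. Its relatives Gpr3 and Gpr6 had between 0 and 25 counts a library, and none of the 3 receptors had enough counts to be tested.

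Among 22 other Golgi residents no gene rose and 2 fell, beside 4.54% and 2.84% of all genes, with a median of −0.01. Mgat2, an enzyme of N-glycan branching, fell by 0.38 (SE 0.08, edgeR adjusted p = 0.018), and Golgb1, the gene of giantin, fell by 0.25 (SE 0.05, adjusted p = 0.018). Neither passed without any 1 OIO library (adjusted p between 0.053 and 0.094). The largest log2 fold change of a Golgi resident was 0.22, below the 0.41 of Nucb1. That Nucb1 differs from this list was not tested.

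The list of ATF4 targets, genes of the integrated stress response, had 12 tested members. Its median was 0.11, and 1 gene rose (8.33%) and 1 fell, beside 4.54% and 2.84% of all genes. Psat1, of serine synthesis, rose by 0.98 (SE 0.10, edgeR adjusted p = 5.6e-04). Ppp1r15a, which directs a phosphatase to eIF2 alpha, fell by 0.41 (SE 0.07, adjusted p = 0.0062). It is also a neighbour of Nucb1, 12510 bases away on the same strand.

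The other neighbours of the members had differences that did not pass. Dhdh, 1653 bases beyond the Nucb1 end, was at −0.10 (SE 0.07, edgeR adjusted p = 0.44), and Plekha4, 15924 bases beyond its start, at −0.30 (SE 0.12, adjusted p = 0.18). Tulp2 is annotated across all 19949 bases of Nucb1 on the opposite strand, and the sources used here do not say whether the counting used strand. It had between 0 and 7 counts a library, against at least 7559 for Nucb1. Around Nucb2, Pik3c2a, Rps13, Xylt1 and Rps15a had log2 fold changes of 0.08, 0.09, 0.34 and 0.02 and did not pass (adjusted p between 0.33 and 0.93). They lie much farther away, at 60920, 170174, 840395 and 1563788 bases from Nucb2. Gm45808, the second gene beyond the Nucb1 end, was not among the gene symbols with counts, so it has no value here.

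Likeness of profile was measured over the 6 libraries, as the root mean square difference of log2 CPM after each gene's own mean was taken away, against 11026 genes whose mean log2 CPM was 2 or more. Genes among the nearest to Nucb2 were Smc2, a condensin subunit, Gmds, of GDP-fucose synthesis, Mcm6, of the replicative helicase, and Yif1b, of ER to Golgi transport, at differences of 0.06, 0.06, 0.08 and 0.08. Their log2 fold changes lay between 0.87 and 1.02. The genes nearest to Nucb1 were Chid1, St8sia1, Sdcbp2, Tbc1d8 and Smap2, at 0.03 to 0.04, with log2 fold changes between 0.34 and 0.44. The members were not nearest to each other: Nucb1 held place 191 among the neighbours of Nucb2, at a difference of 0.29, and Nucb2 place 8213 among those of Nucb1. The measure includes the difference between the groups, and it says nothing of shared control.

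The islet identity of the libraries was clear from hormone markers, and some marker sums did not overlap between the groups. Single genes often did the same: 14.1% of all genes had every OIO library above every control library, and 15.1% every one below. Calls over all genes were 4.54% higher and 2.84% lower. The summed level of 10 beta cell markers was 244224 to 267486 CPM in OIO and 189481 to 242559 CPM in control islets, without overlap. Most of this sum was Ins1, Ins2 and Iapp, none of which passed, while the median log2 fold change of the 10 markers was −0.03 and 2 of them fell. Alpha cell markers (7 genes) summed to 52058 to 62241 and 43884 to 79891 CPM, and 1 rose and 1 fell. Delta cell markers (4 genes) summed to 3110 to 4010 and 3184 to 3740 CPM, with 1 that rose. PP cell markers (2 genes) summed to 3477 to 5592 CPM in OIO and 6091 to 6483 CPM in control islets, without overlap and without a call.

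The summed level of cycling cell markers was also higher in OIO islets. The 6 genes summed to 143 to 167 CPM in OIO and 34.6 to 71.1 CPM in control islets. Of them, 4 rose, beside 4.54% of all genes. Duct markers (4 genes) summed to 132 to 241 and 99.6 to 112 CPM, without overlap and with no call. Acinar (8 genes, 7 tested), endothelial (6), leukocyte (8, of which 7 tested) and stromal (7) markers overlapped between the groups, with no calls, and no marker of any list was at 0 in all libraries. The acinar markers summed to 2776 to 6505 CPM in OIO and 2349 to 7716 CPM in control islets, so RNA of exocrine cells was present and varied between libraries. The part of these cells in the nucleobindin values was not tested.

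The differences of both members kept their direction in every fit that was run. Nucb2 lay between 0.91 and 1.02 on the log2 scale over the 13 alternatives and Nucb1 between 0.35 and 0.43. The lowest value of each came from scaling by library size alone, under which the median of all genes was −0.08. Without any 1 library Nucb2 stayed between 0.95 and 1.02 and Nucb1 between 0.38 and 0.43.

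**Figure D5:**
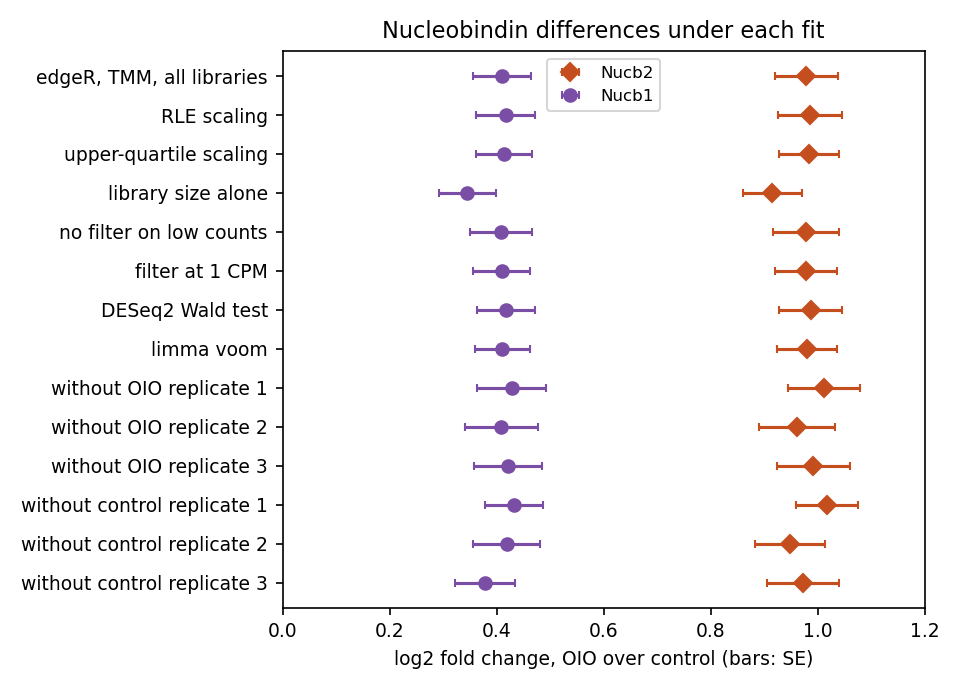
Log2 fold change of OIO over control (points) with its SE (bars) for Nucb2 (diamonds) and Nucb1 (circles) in edgeR with TMM scaling and under 13 other settings, including each library left out in turn. Nucb2 stays between 0.91 and 1.02 and Nucb1 between 0.35 and 0.43.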

How the data were processed

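Poly(A) RNA of 6 islet libraries was measured. The authors deposited whole-number counts per gene symbol with no normalization, and the submitters' processing notes list GRCm38 and mm10 as builds, and as tools limma, kallisto and bcl2fastq, without their roles or versions. The sources used here do not say how kallisto's estimates became whole counts. The authors also deposited a comparison that holds, per the file headers, p-values, scores (a moderated statistic and log odds) and 2 log2 columns, of which the log2 columns (fold change and average expression) are quoted. Library codes in the table carry an extra 0 and were matched by number. Replicates were numbered in accession order, which only names libraries.

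Counts were fitted with edgeR 4.0.16 in R 4.3.3 (filterByExpr, TMM, robust quasi-likelihood, group as the only term, 4 residual degrees of freedom), with Benjamini-Hochberg adjustment over 14903 genes and a threshold of 0.05. The script was tested on simulated data. Each SE was obtained as the size of the log2 fold change over the root of its F statistic. Depth ranged from 20968058 to 48178375 counts, and the common biological coefficient of variation was 10.4%. With 3 libraries against 3, the smallest 2-sided p of an exact permutation test is 0.1, so none was run. DESeq2 1.42.0, limma 3.58.1 voom, other scalings and filters and each library left out were alternatives.

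The members and the gene lists were chosen with earlier results of these data known. Genes were named as follows: list members past the threshold if 5 or fewer, otherwise the 4 of lowest p, 8 genes fixed by name, the 5 nearest profiles (1 gene is not reported here) and the 2 nearest protein-coding genes on each side. Further genes were named after their values were seen: Atp2a2, Atp2c1, the reticulocalbins, Fkbp9, Dnajb11, Pdia4, Mmp2, Ins2, Xbp1, Herpud1, Pdia3, Ins1, Iapp, Erap1, Gnai2, Gnai3, the 3 receptors, Tulp2 and the genes listed by ERSE or ERSE-II. All 215 list entries matched the table, 3 of them under another symbol. Lengths, neighbours and gene coordinates are from GENCODE M21 (GRCm38) and promoters from RefSeq (GRCm38.p6).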

Additional observations from a re-analysis of the deposited data

How the results depend on the processing

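No paired analysis was possible because the labels give no number or animal that pairs an OIO library with a control library. The day is 9 for all of them. The value of Nucb2 was 0.91 and that of Nucb1 0.35 with scaling by library size alone, a setting that gave 2 calls among nucleobindin partners and 4 among Golgi residents. DESeq2 gave 5 calls among calcium store genes, 2 among partners and 8 among hormones and granule peptides. Over all 14903 genes it gave 1411 calls, against 1099 in the main fit. The list of G protein alpha subunits had 0 calls with RLE scaling and with limma voom. The level of Nucb2 in control islets was 103 CPM per kb on merged exons, 133 on the median transcript and 142 on the shortest CCDS transcript, a choice made after seeing the data, and that of Nucb1 was 33.4, 351 and 130. The lengths are the only thing changed there, and for the other values the cause was not tested.

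With each library left out in turn, calls over all genes ranged from 460 to 817, EF-hand genes from 1 to 2, calcium stores from 2 to 3, partners from 0 to 1, G protein alpha subunits stood at 0 throughout, prohormone processing ranged from 1 to 2, hormones and granule peptides from 1 to 3, ATF6 and XBP1 targets from 10 to 13, ATF4 targets from 2 to 3 and Golgi residents from 0 to 3. The difference in log2 ratio of Nucb2 to Nucb1 ranged from 0.53 to 0.59. Depth does not limit the members, whose lowest count was 7559. The Gpr3, Gpr6 and Gpr12 receptors had at most 25 counts a library, and 2, 3 and 1 in OIO replicate 2, the deepest.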
